A study of Mus musculus with 4 samples.

Results

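The serine proteases of the epidermis and their inhibitors were examined as 10 genes: the proteases St14, Prss8, Prss22, Klk6, Klk7 and Klk8, and the inhibitors and inhibitor relatives Spint1, Spint2, Spink5 and Serpinb5. They were taken by gene symbol from the platform annotation, and all 10, of 18193 genes named on the array, had at least 1 probe set, together 14 of its 45037 probe sets. Expression was measured on 4 arrays of basal epidermal cells, sorted by flow cytometry for α6 integrin and YFP from mouse embryos at E16.5. The cKO group (n = 2) came from embryos with both Srf alleles floxed, and the het group (n = 2) from embryos with 1 floxed allele, which the design text calls WT. Both groups carried the floxed ROSA26 YFP reporter and K14-Cre, a Cre recombinase driven by the keratin 14 promoter of basal keratinocytes. The het group is thus a carrier of Cre and of a floxed Srf allele, not an unmodified wild type, and the strain label of the het samples names only Rosa26. Each group had 1 array whose title ends in _1210 and 1 whose title ends in _1261 (Ko_1210 and KO_1261, written cKO_1210 and cKO_1261 from here on, and het_1210 and het_1261). No label says what the numbers mark or whether a sample was 1 embryo or a pool, so the spread between samples may be in part technical.

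Serum response factor (Srf) is a transcription factor that binds CArG boxes. Matriptase (St14) is a membrane-bound protease that activates the zymogen of prostasin (Prss8), and both are needed for the barrier of mouse skin. Their activity is held back by the Kunitz-type inhibitors HAI-1 (Spint1) and HAI-2 (Spint2). In the outer layers kallikreins such as Klk7 cleave the junction proteins that hold cornified cells together, and LEKTI (Spink5) inhibits kallikreins. Maspin (Serpinb5) belongs to the serpin family, but does not inhibit serine proteases in the classic way.

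The deposited values are MAS5 signals, which have no common scale between probe sets, so levels are compared only between arrays for 1 probe set; sums over marker lists, given further on, are led by their brightest probe sets. Differences are cKO minus het in log2(signal + 1). Probe sets whose mean log2 value over the 4 arrays lay above the median of all, which corresponds to a signal of 65.9, were tested. Of the 10 genes, 8 passed this filter with 12 probe sets, and Klk6 and Spink5 did not. In bulk samples fewer cells of a type and less RNA per cell cannot be told apart. Srf had signals of 47.9 and 80.4 on the cKO arrays, against 833.9 and 1108 on the het arrays. Its difference of -3.93 had an unadjusted p of 0.000203 in limma without a block and did not pass there (adjusted p = 1), while with the title number as a block it did (adjusted p = 1.18e-12). The poly-A spike-in controls were 2.56-fold higher in cKO and 2.41-fold higher in het on the _1210 arrays than on the _1261 arrays. The difference within each number is therefore given beside the pooled one. Between the groups these controls were lower in cKO, at 0.918 of het within the _1210 arrays and 0.865 within the _1261 arrays. The part of this offset in the member differences was not tested. The Y-linked gene Eif2s3y was at 3.01 on the cKO_1261 array and between 833.9 and 1485 on the other 3 arrays. Xist, which is expressed from an inactive X chromosome, was at 115.4 and 22802 in cKO, against 62.6 and 14338 in het, so both _1261 arrays were high. The het_1261 array thus showed both Xist and Eif2s3y, and no label says whether it was a pool. The part of embryo sex in the results was not tested.

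No member passed the test between cKO and het in the limma fit without a block, in which the deleted gene did not pass either. In that fit 0 of the 12 tested member probe sets had an adjusted p under 0.05, as had 0% of all 22518 tested probe sets. The smallest unadjusted p among the members was 0.107, for Prss22, and 0 of the 12 were under 0.05, against 108 of all 22518. With the number as a block, 1 of the 12 passed (Prss22), where 0.862% of all tested probe sets passed, and the smallest adjusted p of the other 11 was 0.658. Prss22 passed as lower in cKO, as did 0.497% of all tested probe sets. The 12 probe sets had a median difference of -0.11, and all tested probe sets one of -0.01. For St14, Spint1, Spint2, Klk8 and Serpinb5 the difference of the brightest probe set was under 0.25 in size within both numbers. The other Spint2 probe set differed by -0.39 within the _1210 arrays. The share of all tested genes within that bound was not counted, so small differences are not shown to be particular to the members. Of the 10 genes, 0 differed by over 1.5-fold in the same direction within both numbers. By that rule 1.65% of all tested genes were lower and 0.344% higher.

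**Figure D1:**
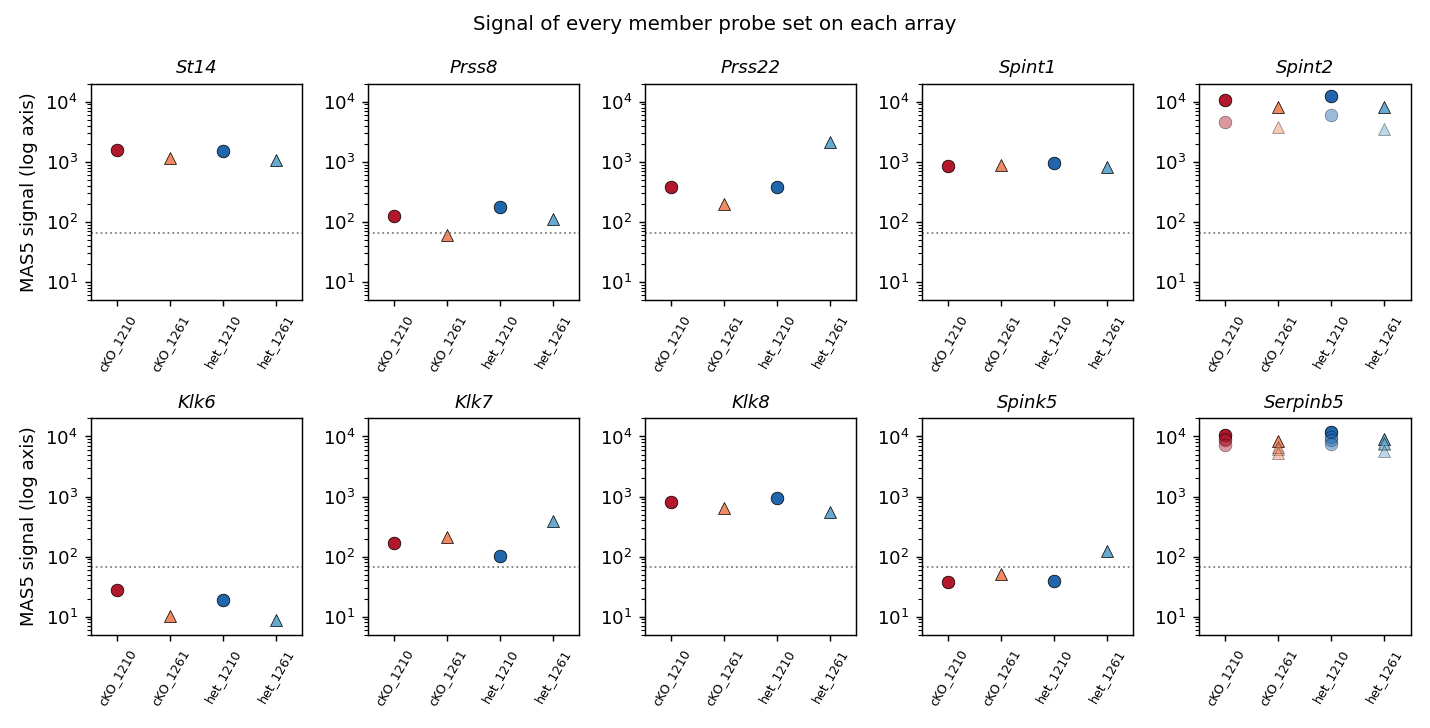
MAS5 signal of the 14 member probe sets on each array (log axis), 1 panel a gene, with cKO in reds and het in blues, circles for _1210 and triangles for _1261. Solid points are the brightest probe set of a gene, faint ones its other probe sets, and the dotted line is the filter at 65.9. Prss22 stands at 2171 on the het_1261 array and between 199.3 and 379.7 on the other 3.

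Matriptase showed no difference that this number of arrays could detect. St14 (probe set 1418076_at) had signals of 1554 and 1134 in cKO (cKO_1210 and cKO_1261, in this order throughout), against 1537 and 1082 in het. The groups overlapped, and the difference was 0.04, with a 95% interval of -0.74 to 0.83 without the block and -0.31 to 0.39 with it. Within the numbers it was 0.02 and 0.07. In each group the _1261 array was lower than the _1210 array.

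Prostasin, the substrate of matriptase, was lower in cKO within each number. Prss8 (1418320_at) had signals of 127.2 and 61.2 in cKO, against 174.2 and 110.0 in het. The groups overlapped, since the cKO_1210 array lay above the het_1261 array. The difference was -0.64 (-0.45 within the _1210 arrays and -0.84 within the _1261 arrays), with a 95% interval of -2.06 to 0.77, and it did not pass (adjusted p = 0.658 with the block). The signal of 61.2 lay below the filter, where MAS5 signals are noisy.

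Prss22 (probe set 1420352_at), a tryptase-like serine protease, was the member with the largest difference, and that difference rested on 1 array. Its signals were 373.5 and 199.3 in cKO, against 379.7 and 2171 in het. The groups did not overlap, as at 10.9% of all tested genes with both cKO arrays below both het arrays, but the gap within the _1210 arrays was small. The difference was -0.02 within the _1210 arrays and -3.44 within the _1261 arrays, where het was 10.9-fold higher. The means were 286.4 ± 123.2 in cKO and 1275 ± 1267 in het (SD, n = 2 each), so the het SD was close to the het mean. The mean difference of -1.73 had a 95% interval of -4.0 to 0.53 in limma without the block. With the block it passed (adjusted p = 0.00616), but not with a robust variance prior (0.89), without the variance trend (0.76), or with the block and arrays centred on the median of all probe sets (0.109). Eif2s3y, whose low value is also that of 1 array, passed with the block as well (adjusted p = 0.00128). Without the het_1261 array the difference of Prss22 was -0.47 (no block), and without the het_1210 array the difference of Prss22 was -2.99. The het_1261 array is the one that showed both Xist and Eif2s3y; the part of this in the value of Prss22 was not tested.

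The Kunitz inhibitors of matriptase and prostasin did not pass in either fit. Spint1 (1416627_at) had signals of 839.8 and 898.8 in cKO, against 941.6 and 821.4 in het. Its groups overlapped, and the differences within the numbers had opposite signs, -0.16 and 0.13. Its mean difference of -0.02 became 0.10 when arrays were centred on the median of all probe sets. The brighter probe set of Spint2 (1438968_x_at) had signals of 10629 and 8047 in cKO, against 12437 and 8144 in het. The other (1451935_a_at) had 4573 and 3800 in cKO, against 5984 and 3486 in het. Both Spint2 probe sets overlapped between the groups, with differences of -0.12 (95% interval -0.94 to 0.70) and -0.13 (-0.99 to 0.73). Within the _1261 arrays the Spint2 probe sets disagreed in sign, at -0.02 and 0.12, while within the _1210 arrays both were below 0, at -0.23 and -0.39.

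**Figure D2:**
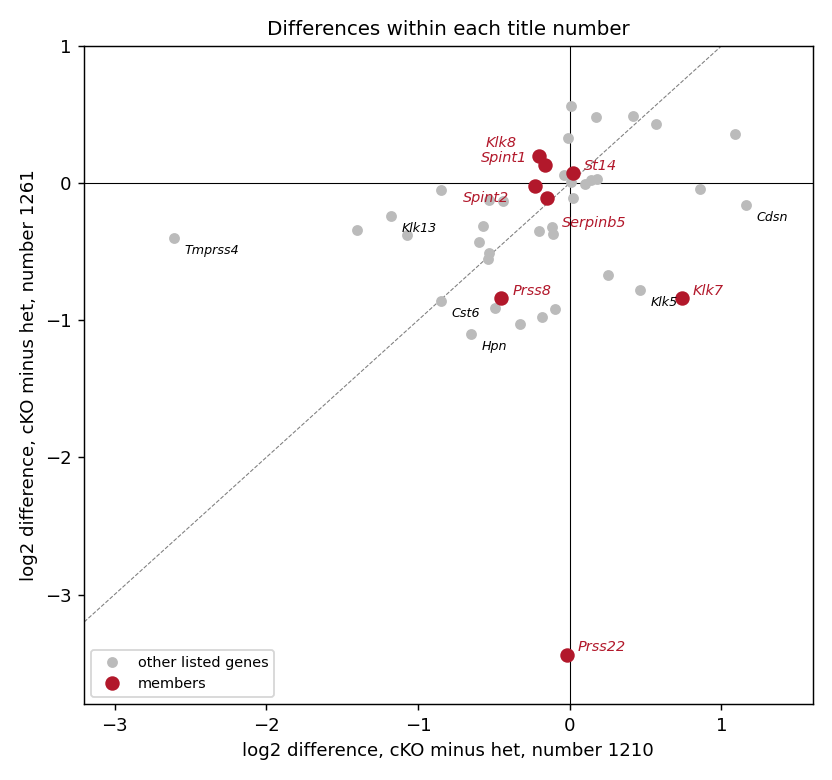
Differences in log2 signal (cKO minus het) within the _1210 arrays (horizontal) and the _1261 arrays (vertical) for the 8 tested members (red, brightest probe set) and the 36 tested genes of the 3 further lists (grey); the dashed line marks equal differences. Prss22 lies at -0.02 and -3.44 and Tmprss4 at -2.61 and -0.40, while Klk7 lies at 0.74 and -0.84.

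Among the kallikreins, Klk8 (1419722_at), which is also expressed in brain and wounded skin, had signals of 818.1 and 632.1 in cKO, against 937.2 and 549.3 in het. The cKO values lay inside the range of the het values, and the difference was 0.00 (-0.20 and 0.20 within the numbers; 95% interval -0.92 to 0.93). Klk7 (1423542_at), a chymotrypsin-like protease of the stratum corneum, had signals of 170.0 and 214.4 in cKO, against 101.2 and 385.0 in het. Its cKO values also lay inside the range of the het values, and it was 1.68-fold higher in cKO within the _1210 arrays and 1.80-fold higher in het within the _1261 arrays. The mean difference of -0.05 therefore describes neither number, and its 95% interval was -1.84 to 1.74. It became 0.07 with arrays centred on the median of all probe sets. Opposite signs within the numbers were found at 3 of the 8 tested members (Spint1, Klk7 and Klk8), against 44% of all tested genes. Klk6 (1448982_at), a trypsin-like kallikrein known mainly from the nervous system, had signals of 27.9 and 10.1 in cKO, against 19.2 and 8.83 in het. All 4 lay below the filter, so its differences of 0.52 and 0.17 are imprecise and were not tested.

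Klk8, Klk7 and Klk6 stand side by side on chromosome 7 in the gene order of GRCm38.p6. They were placed in a row of 13 kallikrein genes, of which 11 were matched and 8 tested. By symbol the array held 20 Klk genes, 8 of them tested, so the row leaves out some untested ones. Of the tested neighbours, Klk5, which follows Klk6, differed like Klk7 by 0.46 within the _1210 arrays and -0.78 within the _1261 arrays. Its signals were 159.4 and 149.5 in cKO, against 115.3 and 256.5 in het. Klk5 starts the proteolytic activation of other epidermal kallikreins. At the other end of the row Klk13 had signals of 381.1 and 385.6 in cKO, against 865.8 and 455.4 in het. It was lower in cKO within both numbers, at -1.18 and -0.24, and did not pass (adjusted p = 0.157 with the block); it was named after its values were seen. Klk10, also named afterwards, differed by 0.14 and 0.02. The tested kallikreins did not share 1 direction: 5 of 8 had a mean difference below 0 and 3 above, with a median of -0.10, Klk8 counted above at 0.00. Of all tested genes 53.8% had a difference below 0, with a median of -0.02.

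**Figure D3:**
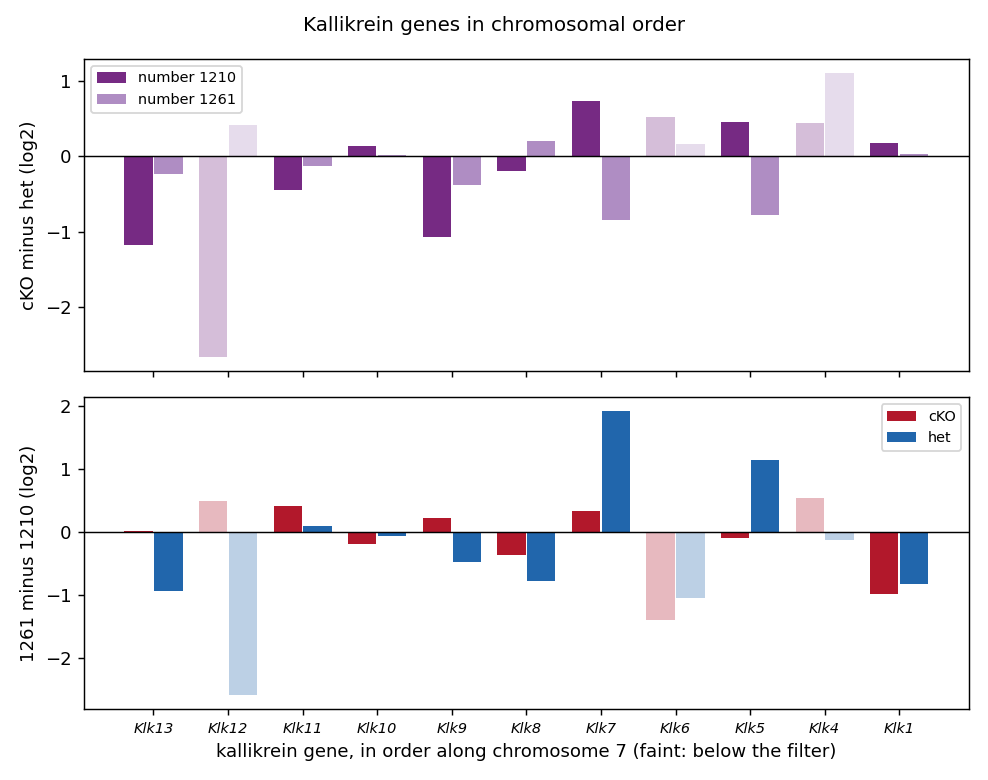
The 11 matched genes of the row of 13 kallikrein genes, in their order along chromosome 7. Above is the log2 difference cKO minus het within the _1210 arrays (dark) and _1261 (light). Below is _1261 minus _1210 within cKO (red) and het (blue). Faint bars are genes below the filter. In the upper panel Klk7, Klk5, Klk8 and the faint Klk12 change sign between the numbers, and Klk8, Klk10 and Klk1 stay within 0.20 of 0. Klk1 is drawn by its brightest probe set. Its other probe sets were below the filter and differed by 2.88, 1.71 and -1.45 on average.

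The starts of Klk8 and Klk7 are shown because these neighbours differ in how they vary between arrays, and the start of Srf shows what the searched CArG box looks like. Sequences are RefSeq's, build GRCm38.p6, 250 bases before to 50 after the start, in the direction of the gene. Klk8 is at chr7:43797327-43797626 (plus strand), Klk7 at chr7:43811044-43811343 (plus strand) and Srf at chr17:46556113-46556412 (minus strand). Capitals mark the GC box (GGGCGG or its complement) in Klk8 and Klk7, and the CArG boxes in Srf.
Klk8: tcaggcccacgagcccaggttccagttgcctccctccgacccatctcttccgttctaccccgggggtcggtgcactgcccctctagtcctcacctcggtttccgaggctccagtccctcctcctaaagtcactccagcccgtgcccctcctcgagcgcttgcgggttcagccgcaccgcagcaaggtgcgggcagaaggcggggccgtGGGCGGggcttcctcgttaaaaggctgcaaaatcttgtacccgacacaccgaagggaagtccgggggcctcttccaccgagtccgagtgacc
Klk7: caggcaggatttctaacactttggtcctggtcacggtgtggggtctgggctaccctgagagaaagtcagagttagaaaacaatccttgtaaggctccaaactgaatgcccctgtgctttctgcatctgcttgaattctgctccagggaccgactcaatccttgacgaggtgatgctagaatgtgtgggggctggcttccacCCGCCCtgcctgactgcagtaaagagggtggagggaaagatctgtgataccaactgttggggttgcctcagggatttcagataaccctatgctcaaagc
Srf: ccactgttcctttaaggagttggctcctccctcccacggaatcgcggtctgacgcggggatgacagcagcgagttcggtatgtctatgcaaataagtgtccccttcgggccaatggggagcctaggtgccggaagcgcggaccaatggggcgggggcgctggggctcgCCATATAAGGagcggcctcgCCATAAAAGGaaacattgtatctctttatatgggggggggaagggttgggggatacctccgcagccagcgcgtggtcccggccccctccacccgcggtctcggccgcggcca
The table held 7 such windows for 6 of the 10 members (Serpinb5, Spint1, Spint2, Klk8, Klk7 and 2 for Klk6). The CArG box was found in 0 of the 7, against 1.63% of all 32851 windows, and Srf held 2. The GC box, searched on both strands, was found in 7 of the 7 windows, against 35.7% of all. The AP-1 site TGANTCA was in 2 of the 7 (Serpinb5 and Spint1), against 7.81% of all, and the TATA box TATAAA in 0 of 7, against 13.6%. With 7 windows these shares describe the letters and nothing more.

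LEKTI and maspin, the remaining inhibitor genes, also gave no call. Spink5 (1430567_at) had signals of 37.1 and 51.5 in cKO, against 39.3 and 123.0 in het. Only the het_1261 array lay above the filter and the mean log2 value did not, so Spink5 was not tested. Its difference of -1.24 within the _1261 arrays stands beside -0.08 within the _1210 arrays. Serpinb5 was read by 4 probe sets. The brightest (1421752_a_at) had signals of 10725 and 8262 in cKO, against 11862 and 8948 in het, and the groups overlapped. Its difference was -0.13 (-0.15 and -0.11), with a 95% interval of -0.86 to 0.60. The other 3 differed by -0.19, -0.10 and -0.06, so all 4 were below 0 on average, but the sign of 2 of them turned when arrays were centred on the median of all probe sets, which shifted all tested probe sets by 0.12.

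Several members varied more between the numbers than between the groups. Both _1261 arrays lay below both _1210 arrays at 5 of the 8 tested members (St14, Prss8, Spint2, Klk8 and Serpinb5), against 41.5% of all tested genes. Both lay above at 1 of the 8 (Klk7), against 25.5%. The het_1210 array was the highest of the 4 at 5 of the 8 (Prss8, Spint1, Spint2, Klk8 and Serpinb5), against 42.6% of all. For St14 the difference _1261 minus _1210 was -0.45 in cKO and -0.51 in het, and for Serpinb5 it was -0.38 and -0.41. For Prss22 it was -0.90 in cKO and 2.51 in het. The share of the number in these differences, as a technical batch or otherwise, was not tested.

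The het_1261 array was the highest of the 4 for Prss22, Klk7 and the untested Spink5. Among tested members that is 2 of 8, where 18.4% of all tested genes had that array highest. Many markers of granular and cornified keratinocytes, the layers where Klk7 and Spink5 act, were highest there too. That array was the highest for 8 of the 13 matched markers, 7 of them among the 11 tested: loricrin (Lor) was at 3418 and 5705 in cKO, against 1063 and 9592 in het. The summed signal of the 13 markers was 9123 and 11944 in cKO, against 6792 and 18881 in het, a sum led by Lor and Asprv1. None of the 13 had a signal under 1 on any array. With the block 1 of the 11 tested passed as higher in cKO (Sprr1b) and 1 as lower (Elovl4). Of all 11053 tested genes 28 passed as higher and 69 as lower. Sprr1b differed by 2.88 within the _1210 arrays and -0.26 within the _1261 arrays. It did not pass with the block and robust prior (adjusted p = 0.91), while Elovl4 did (0.00413), and neither passed without the variance trend. Filaggrin (Flg) was at 3.62 and 11.2 in cKO, against 39.3 and 144.0 in het. Only its het_1261 signal lay above the filter and its mean log2 value did not, so Flg was not tested. The summed signal of the 8 basal markers was 186465 and 141878 in cKO, against 199062 and 146949 in het, a sum led by Krt14, Krt5 and Krt15. The het_1261 array was the highest for 1 of these 8, the sorted integrin Itga6, at 9219 and 10725 in cKO, against 6610 and 12525 in het, and 0 of the 8 passed with the block. The 9 mast and other immune cell markers summed to 347.6 and 1015 in cKO, against 998.4 and 1515 in het. With the block 2 of the 3 tested passed as lower in cKO (Cpa3 and Laptm5), against 0.624% of all tested genes. With the robust prior 0 of the 3 passed, and their median difference was -0.93. The 7 periderm markers summed to 652.1 and 1198 in cKO, against 992 and 1015 in het. The part of these cells in the values of Prss22, Klk7 and Spink5 was not tested.

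**Figure D4:**
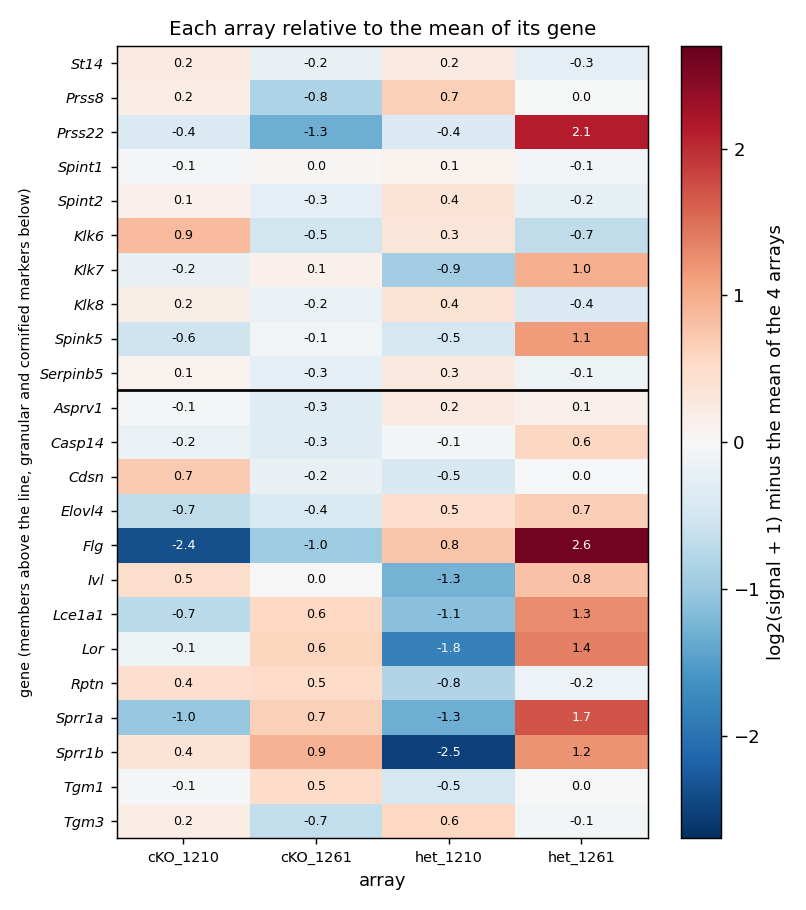
Each array's log2(signal + 1) minus the mean of the 4 arrays, for the 10 members (above the line, brightest probe set) and 13 granular and cornified markers (below), with cKO arrays on the left; red is above the gene's mean. Prss22, Klk7 and Spink5 are highest on the het_1261 array, as are 8 of the 13 markers.

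Further lists placed the members among their relatives and targets. Of 23 other serine proteases 21 were matched and 14 tested, and 1 passed with the block, Tmprss4, where 0.624% of all tested genes passed as lower in cKO. Tmprss4 is a membrane serine protease, and its signals were 121.4 and 157.2 in cKO, against 745.5 and 207.6 in het. The groups did not overlap, but the difference was mostly within the _1210 arrays, at -2.61, and only -0.40 within the _1261 arrays. It passed with the block (adjusted p = 0.00994), not with the robust prior (0.69), and without the het_1210 array the difference was -0.58 (adjusted p = 1). Hepsin (Hpn), a relative of matriptase, had signals of 74.3 and 59.5 in cKO, against 117.2 and 128.7 in het. It was over 1.5-fold lower within both numbers (-0.65 and -1.10), as at 1.65% of all tested genes, and did not pass (adjusted p = 0.543 with the block). The signal of 59.5 lay below the filter, where MAS5 signals are noisy.

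The 14 tested proteases had a median difference of -0.36 (-0.47 within the _1210 arrays and -0.31 within the _1261 arrays), and all tested genes one of -0.02. Both cKO arrays lay below both het arrays at 7 of the 14, against 10.9% of all tested genes, and above at 1, against 8.17%. The 7 were Tmprss4, Hpn, Klk13, Klk9, Tmprss2, Klk11 and Furin, and all but Tmprss4 failed the test in both fits. Of 8 spinous keratinocyte markers, which label the first suprabasal layer, 4 passed as lower in cKO with the block (Krt1, Krt10, Lypd3 and Sbsn), against 0.624% of all tested genes, and 4 with the robust prior. None of the 8 passed without the block or without the variance trend. Their summed signal was 89816 and 69954 in cKO, against 147404 and 86557 in het. The het_1210 array was the highest for 7 of those 8 and for Tmprss4, as it was for 42.6% of all tested genes. The 9 matched dermal fibroblast markers summed to 54132 and 54796 in cKO, against 67138 and 59548 in het, a sum led by Dcn and Postn. With the block 3 of the 9 passed as lower in cKO (Col3a1, Twist2 and Vim) and 0 with the robust prior, with a list median of -0.62. The part of these cells in the values of the proteases was not tested.

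Of 17 other protease inhibitors 13 were matched and 9 tested, and 0 passed in limma with or without the block, with 1 of 9 at an unadjusted p under 0.05. Cystatin M/E (Cst6), an inhibitor of cysteine proteases that restrains cathepsins in the cornified layer, had signals of 199.3 and 176.1 in cKO, against 359.4 and 319.7 in het. The groups did not overlap and the differences within the numbers were -0.85 and -0.86, yet it did not pass (unadjusted p = 0.043 without the block, adjusted p = 0.127 with it). The 9 inhibitors had a median of -0.33, and all tested genes one of -0.02. Both cKO arrays lay below both het arrays at 5 of the 9, against 10.9% of all tested genes, and above at 1, against 8.17%. Slpi, a secreted inhibitor of leukocyte elastase, was among them with signals of 77.8 and 65.5 in cKO, against 89.7 and 84.0 in het, and a difference of -0.28.

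Of 16 receptors, channels and substrates 15 were matched and 13 tested, and 0 passed with or without the block, where 0.878% of all tested genes passed with it, with 0 of 13 at an unadjusted p under 0.05 in limma without it. The median was 0.05. Epcam, an adhesion protein that matriptase can cleave, had signals of 4517 and 5231 in cKO, against 4215 and 5257 in het. Corneodesmosin (Cdsn), a kallikrein substrate in cornified cell junctions, had signals of 195.0 and 104.0 in cKO, against 86.9 and 116.4 in het. It differed by 1.16 within the _1210 arrays and -0.16 within the _1261 arrays, so that, as for Klk7 and Klk5, the sign depended on the number.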

How the data were processed

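Array intensity values of 4 samples were analysed. Per the submitters' processing notes the authors made them with MAS5 (version not given in the sources used here); each deposited intensity is 1 signal per probe set on a linear scale. The 2% trimmed mean was 500 on every array, so only changes relative to it can be seen. Of 45101 probe sets 64 controls were left out; 34945 had 1 gene symbol, updated through Entrez identifiers, 932 several and 9160 none. Where a gene had several probe sets, its brightest on average stood for it in lists.

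Values were taken as log2(signal + 1). The 22518 probe sets above the median (11053 genes by their representing probe set) were fitted with limma 3.58.1 in R 4.3.3 (variance trend, two-sided, Benjamini-Hochberg over all tested probe sets, threshold 0.05), with 2 residual degrees of freedom. The alternative with the title number as a block had 1 residual degree of freedom and 34.4 prior ones. Deviations of same-numbered arrays from their group means correlated at 0.755 across probe sets; with 2 numbers and no label they are not shown to pair animals. The number of arrays limits the precision.

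Members and lists were chosen with earlier results of these data known. Named are all members, genes of the further lists past the threshold or over 1.5-fold in 1 direction within both numbers, and Klk5, Cdsn, Epcam and Slpi for their roles; Klk13 and Klk10 and the proteases whose groups did not overlap (Klk9, Klk11, Tmprss2 and Furin), as well as single cell type markers, were named after their values were seen; some genes of the lists, Klk14 and F2rl1 among them, were not analysed here. Python 3.11.15 and matplotlib 3.10.9 made the plots.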

Additional observations from a re-analysis of the deposited data

How the results depend on the processing

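Without the block, 0 probe sets passed under 2 other filters, a pseudocount of 16, median centring and quantile normalization; leaving out 1 array gave 0 to 5. With the replicate block 194 passed, 84 with a robust prior, 0 without the variance trend, and 109 when the arrays were also centred on the median of all probe sets, an alternative chosen after seeing the data. Among members, and among the 36 tested genes of the 3 protease, inhibitor and substrate lists, the count was 1 each with the block and 0 under each other setting; marker lists were not rerun under the other filters, scalings or left-out arrays. For 19 probe sets (12 of members, 7 of other named genes), 172 of 182 values under other settings kept direction and side of the threshold. Prss22 and Tmprss4 passed with the block. Centring on the median of all probe sets, with and without the block, turned Spint1 to 0.10, Klk7 to 0.07 and 2 Serpinb5 probe sets to 0.03 and 0.06. Leaving out 1 array unbalances the numbers between the groups, and 19 of 76 such values turned: St14 ranged from -0.21 to 0.29, Spint1 from -0.12 to 0.08, the Spint2 probe sets from -0.43 to 0.18 and -0.52 to 0.26, Klk7 from -1.01 to 0.91, the Serpinb5 probe sets from -0.33 to 0.07, -0.45 to 0.07, -0.29 to 0.10, -0.27 to 0.16, Epcam from -0.11 to 0.21 and Klk5 from -0.73 to 0.42. Klk8, at 0.00, ranged from -0.38 to 0.39. With 2 arrays a group, small differences were not detectable.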

Other observations

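The gene families to which the members belong were counted by symbol on the same array. Over all tested genes 53.8% had a difference below 0, with a median of -0.02, and 0.878% passed with the block. Of 18 Serpinb genes, intracellular serpins of epithelia and leukocytes, 13 were tested, 10 had a difference below 0 and 0 passed with the block, with a median of -0.21 (-0.12 within the _1210 arrays and -0.33 within the _1261 arrays). Both cKO arrays lay below both het arrays at 5 of the 13, against 10.9% of all tested genes, and above at 1, against 8.17%. Of 31 Prss genes 9 were tested, 6 had a difference below 0, and Prss22 was the 1 that passed with the block. Of 12 Tmprss genes 4 were tested, 3 had a difference below 0, and Tmprss4 was the 1 that passed with the block. Of 7 Spink genes 1 was tested and did not pass. In limma without the block 0 genes of these families passed, and 0 had an unadjusted p under 0.05. These families include members and genes of the further lists, so their counts are not independent of those above.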
